A study of Mus musculus with 16 samples.

Results

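Long noncoding RNA (lncRNA) promoters were taken as the autosomal bait fragments that hold the start of at least 1 gene of type lincRNA or antisense in the GENCODE vM1 annotation of mouse build mm9 and the start of no protein-coding gene. Of 17708 autosomal bait fragments, 836 met this rule, and they hold the starts of 852 lncRNA genes. A bait fragment is a HindIII restriction fragment that the capture step of Promoter Capture Hi-C enriched, and here it is one that stands as bait in a list of any timepoint, so every member has at least 1 contact. The gene records of this annotation have no type antisense, so a gene was typed by its transcripts: 811 genes had an antisense transcript, 50 were lincRNA and 9 of these were both. Livers came from wild-type male C57BL/6 mice. By the methods of the study, mice 8 weeks old were kept for 2 weeks in 12 h light and 12 h dark with free access to food. Livers were taken at Zeitgeber times (ZT) 0 (lights on), 6, 12 (lights off) and 18. Each timepoint had 3 pools of 2 livers. There are 16 samples, since pool A of each timepoint has a second sample, labelled rep2 and with another lane. The labels do not say whether it is a second library. The authors merged the pools into 1 list of scored fragment pairs per timepoint. Whole liver was used, so contacts of hepatocytes and of other liver cells were read together. The lists hold no expression values, so the tissue label could not be checked against liver markers.

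LncRNAs are transcripts made by RNA polymerase II that are not translated into protein. A lincRNA lies between protein-coding genes, whereas an antisense lncRNA is transcribed from the opposite strand of a protein-coding gene that it overlaps, and some lncRNAs, such as those of imprinted clusters, act on the genes around their own locus. Promoter Capture Hi-C reads which distant fragments were ligated to a promoter fragment, and so which sequences lay close to it in the nucleus.

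The promoter windows below show the CG dinucleotides of some of these starts, chosen for the reasons given here and not as typical ones. Each runs from 250 bases before the annotated start to 49 bases after it, 5′ to 3′ on the strand of the lncRNA in build mm9, with every CG in capitals. Gm16133 (chr13:63434195-63434494, + strand) and Gm15418 (chr8:11187505-11187804, + strand) are shown because their fragments have the most and the third most contacts of all members, and Gm16120 (chr5:140683089-140683388, + strand) because its number of contacts differed more than 2-fold between ZT0 and ZT12. H19 (chr7:149763999-149764298, - strand) and Snhg5 (chr9:88417672-88417971, - strand) are lncRNAs of the imprinted and snoRNA-host lists and carry more CG dinucleotides.
Gm16133: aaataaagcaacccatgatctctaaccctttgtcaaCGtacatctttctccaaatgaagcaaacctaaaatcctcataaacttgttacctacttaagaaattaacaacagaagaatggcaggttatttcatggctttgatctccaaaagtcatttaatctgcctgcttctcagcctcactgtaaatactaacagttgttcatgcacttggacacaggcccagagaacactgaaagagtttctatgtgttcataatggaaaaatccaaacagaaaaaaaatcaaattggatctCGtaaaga
Gm15418: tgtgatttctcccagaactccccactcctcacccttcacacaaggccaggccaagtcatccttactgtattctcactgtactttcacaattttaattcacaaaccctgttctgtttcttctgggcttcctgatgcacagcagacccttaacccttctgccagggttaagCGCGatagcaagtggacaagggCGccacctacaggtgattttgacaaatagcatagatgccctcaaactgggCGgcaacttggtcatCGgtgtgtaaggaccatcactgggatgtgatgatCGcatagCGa
Gm16120: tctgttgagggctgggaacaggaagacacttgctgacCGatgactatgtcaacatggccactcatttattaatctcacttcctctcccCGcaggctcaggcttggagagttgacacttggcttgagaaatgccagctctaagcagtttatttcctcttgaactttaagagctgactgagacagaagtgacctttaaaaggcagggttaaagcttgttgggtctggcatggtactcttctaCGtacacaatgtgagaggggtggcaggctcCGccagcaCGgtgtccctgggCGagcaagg
H19: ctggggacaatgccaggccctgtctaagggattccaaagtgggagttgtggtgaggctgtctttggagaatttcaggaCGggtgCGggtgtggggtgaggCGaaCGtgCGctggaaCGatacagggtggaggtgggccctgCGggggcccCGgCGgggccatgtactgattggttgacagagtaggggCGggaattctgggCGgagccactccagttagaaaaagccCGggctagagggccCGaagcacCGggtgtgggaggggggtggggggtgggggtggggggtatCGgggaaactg
Snhg5: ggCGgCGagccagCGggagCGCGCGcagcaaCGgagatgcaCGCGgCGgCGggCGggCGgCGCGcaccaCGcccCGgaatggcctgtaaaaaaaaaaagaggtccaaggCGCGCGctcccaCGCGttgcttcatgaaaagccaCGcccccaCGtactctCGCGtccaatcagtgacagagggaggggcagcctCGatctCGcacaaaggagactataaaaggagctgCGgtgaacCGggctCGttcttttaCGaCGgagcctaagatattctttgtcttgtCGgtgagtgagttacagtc

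A window of 300 bases at a lncRNA start held a median of 5 CG dinucleotides (interquartile range 2 to 8, n = 852), against 15 (5 to 25, n = 16455) at protein-coding starts on autosomal baits. At least 10 CG dinucleotides were present at 133 lncRNA starts (15.6%) and at 10204 protein-coding starts (62.0%). The GC content of the windows had a median of 49.7% for lncRNAs and 57.3% for protein-coding genes. Among the lncRNAs, the median was 4 CG dinucleotides for the 497 starts in an intron of a protein-coding gene, 7 for the 109 in an exon and 5 for the 246 outside protein-coding genes. The windows printed above hold from 2 CG dinucleotides at Gm16133 to 34 at Snhg5, and all 852 lncRNA starts hold from 0 to 62. H19 and Snhg5 lie above the upper quartile of 8, so the printed windows do not stand for most lncRNA starts.

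**Figure D1:**
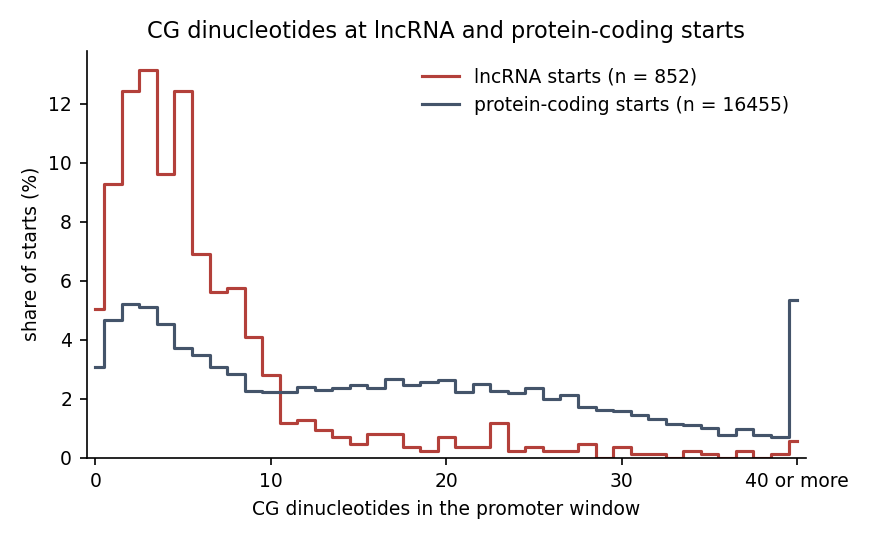
Share of gene starts (vertical axis, percent) by the number of CG dinucleotides in the window of 300 bases (horizontal axis, with 40 or more in the last bin), for 852 lncRNA and 16455 protein-coding starts. LncRNA starts pile up below 10 CG dinucleotides, with a median of 5, while protein-coding starts spread to 40 and more, with a median of 15.

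Exact letters of 5 motifs were searched on both strands of the same windows. The canonical E-box CACGTG, to which the clock factors CLOCK and BMAL1 bind, was present at 5.28% of lncRNA starts (45 of 852), 8.52% of protein-coding starts and 8.31% of all 18143 starts on autosomal baits. The D-box TTATGTAA, the motif of PAR bZIP factors, was present at 4 lncRNA starts (0.469%, against 0.827% of all starts), and TAGGTCA, the core of the ROR and REV-ERB response element, at 22 (2.58%, against 2.18%). The core of the motif of the insulator protein CTCF (CC, then 3 bases of any kind, AGG, any base and GGC) was present at 23 lncRNA starts (2.70%, against 4.55% of all starts), Gm15418 among them. TATAAA was present at 88 (10.3%, against 11.1%). In a window of 1000 bases the D-box was at 2.46% of lncRNA and 2.31% of all starts and TATAAA at 35.3% and 27.96%, so the order of both turned with the window. These are matches of letters and not measured binding.

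The members were spread over the chromosomes otherwise than protein-coding baits. Chromosomes 2, 4 and 11, picked because they hold the most members, held 360 of the 836 (43.1%). They held 22.6% of the 13924 autosomal baits with protein-coding starts only. Part of this difference follows from that choice of chromosomes, and the part of the annotation in it was not tested. Of all 1345 autosomal antisense genes, 1108 (82.4%) lay on a bait, and 811 of these on a bait without a protein-coding start. Of 2023 autosomal lincRNA genes only 610 (30.2%) lay on a bait and 50 on a member, so the values below describe mainly antisense promoters. The lincRNA share depends on the typing by transcripts. Of the 1232 genes whose own record is lincRNA, 568 (46.1%) lay on a bait and 36 on a member. A protein-coding gene on the opposite strand was overlapped by 673 of the 852 lncRNA genes (79.0%), and 593 (69.6%) started inside one.

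The 836 fragments had 12609 contacts, counted as distinct fragment pairs over the 4 lists and from either end of a pair. A contact is a pair with a CHiCAGO score of at least 5, where the score weighs the reads of a pair against those that distance and noise would give. A member had a median of 9 contacts (95% interval 8 to 10, interquartile range 4 to 20), against 10 for protein-coding baits and 9 for all autosomal baits. Of the members, 139 (16.6%, against 16.4% of all autosomal baits) had 1 or 2 contacts, 40 (4.78%, against 5.69%) had over 50, and the highest had 133. Antisense-only fragments had a median of 9 contacts (n = 786), lincRNA-only fragments 8 (95% interval 5 to 12, n = 34) and fragments with both types 18.5 (6 to 45, n = 16), intervals that overlap. Intervals here cover counting error only, and contacts of a fragment are not independent of each other. With 1 list per timepoint there is no replicate error and no test between groups of baits.

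**Figure D2:**
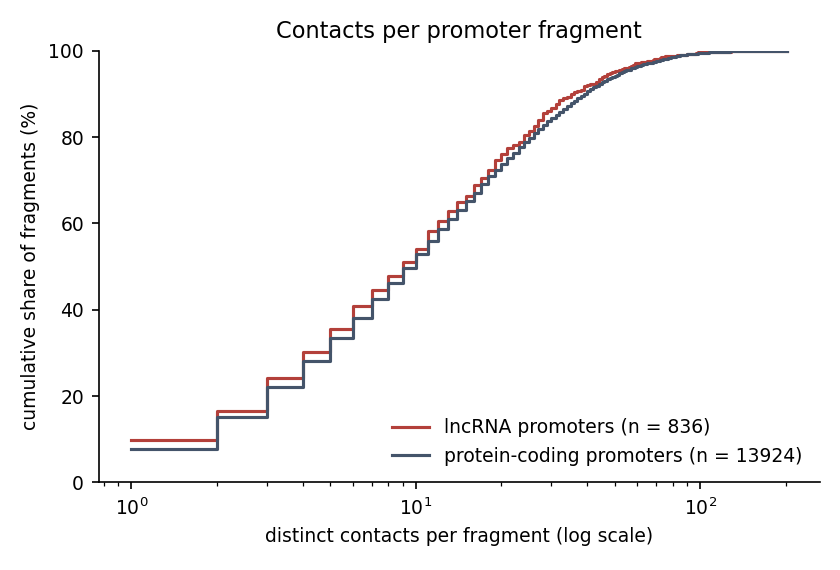
Cumulative share of bait fragments (vertical axis, percent) by their number of distinct contacts over the 4 timepoints (horizontal axis, log scale), for 836 lncRNA and 13924 protein-coding promoter fragments. The lines run close together, with medians of 9 and 10 contacts.

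The contacts of lncRNA promoters lay at a median distance of 171 kb (95% interval 168 to 174) between fragment centres, and those of protein-coding baits at 160 kb (159 to 160). Over 150 kb were 56.3% of the contacts of members and 52.6% of those of protein-coding baits. The other end was itself a bait in 22.5% of the contacts of members (95% Wilson interval 21.8 to 23.3) and in 27.7% for protein-coding baits. This share differed among the members by where the lncRNA starts: it was 32.7% for starts in an exon of a protein-coding gene, 18.9% for starts in an intron and 26.3% outside. For all autosomal baits the median distance was 163 kb, with 53.5% over 150 kb and 26.6% with a bait end. For the 2136 baits with neither kind of start these values were 183 kb, 58.8% and 20.9%. The longer distances and fewer bait ends were thus not particular to lncRNA promoters. Members also had fewer protein-coding starts within 500 kb (median 13, against 16 for protein-coding baits), and the part of this difference in the distances and shares was not tested.

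By what lay at the other end, 5896 contacts (46.8%, against 44.0% for all autosomal baits) reached a fragment within a protein-coding gene. A fragment outside such genes was reached by 3821 (30.3%, against 28.8% for all autosomal baits). A bait with a protein-coding start was reached by 2358 (18.7%, against 24.7% for protein-coding baits). Another lncRNA promoter was reached by 210 (1.67%, against 1.01% for all autosomal baits), which are 105 pairs among 179 members. Contacts with protein-coding baits were listed at all 4 timepoints in 37.7% of cases and those outside protein-coding genes in 31.1%, against 36.7% and 32.1% for protein-coding baits. Of the 105 pairs of lncRNA promoters, 43 were listed at all 4. In all, 660 members (78.9%, 95% interval 76.1 to 81.6) had a contact with a protein-coding promoter at some timepoint, against 84.0% of protein-coding baits and 82.2% of all autosomal baits. A contact of this kind listed at all 4 timepoints was present for 406 members (48.6%, 45.2 to 52.0), against 55.0% and 52.9%.

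Many lncRNA promoters had all their contacts on a single side. Among the 408 members with at least 10 contacts on their own chromosome, 117 (28.7%, 95% interval 24.5 to 33.2) had every contact to the same side, against 1424 of 6992 protein-coding baits (20.4%, 19.4 to 21.3). With at least 50 contacts this was so for 10 of 42 members (23.8%, 13.5 to 38.5) and 97 of 853 protein-coding baits (11.4%, 9.41 to 13.7). The median share of contacts on the fuller side was 88.6% for members and 82.6% for protein-coding baits. Relative to the strand, 53.5% of the contacts of members lay in the direction of transcription, and 52.4% of those of protein-coding baits. These are descriptions, since baits near each other share other ends and the groups differ in gene density, whose part was not tested.

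The member with the most contacts holds the start of Gm16133, an antisense lncRNA inside Fancc, a gene of the Fanconi DNA repair pathway. It had 120, 118, 109 and 118 contacts at ZT0, ZT6, ZT12 and ZT18, 133 in all, of which 91 were listed at all 4 timepoints. All 133 lay on the same side, 29.9 to 474 kb away. Its highest score was with a fragment outside protein-coding genes at 408 kb (71.0, 55.0, 65.3 and 68.3 at the 4 timepoints), and the next with a fragment inside 2010111I01Rik at 285 kb (67.7, 68.3, 61.7 and 68.2). It contacted the promoter of Fbp1, which encodes a fructose-1,6-bisphosphatase of gluconeogenesis, at 446 kb with scores of 24.1, 21.5, 23.9 and 11.6, so the lowest was at ZT18. The promoter of its paralogue Fbp2 at 474 kb was listed at all 4 timepoints too, with scores between 5.09 and 8.62, whereas that of Fancc was not listed.

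**Figure D3:**
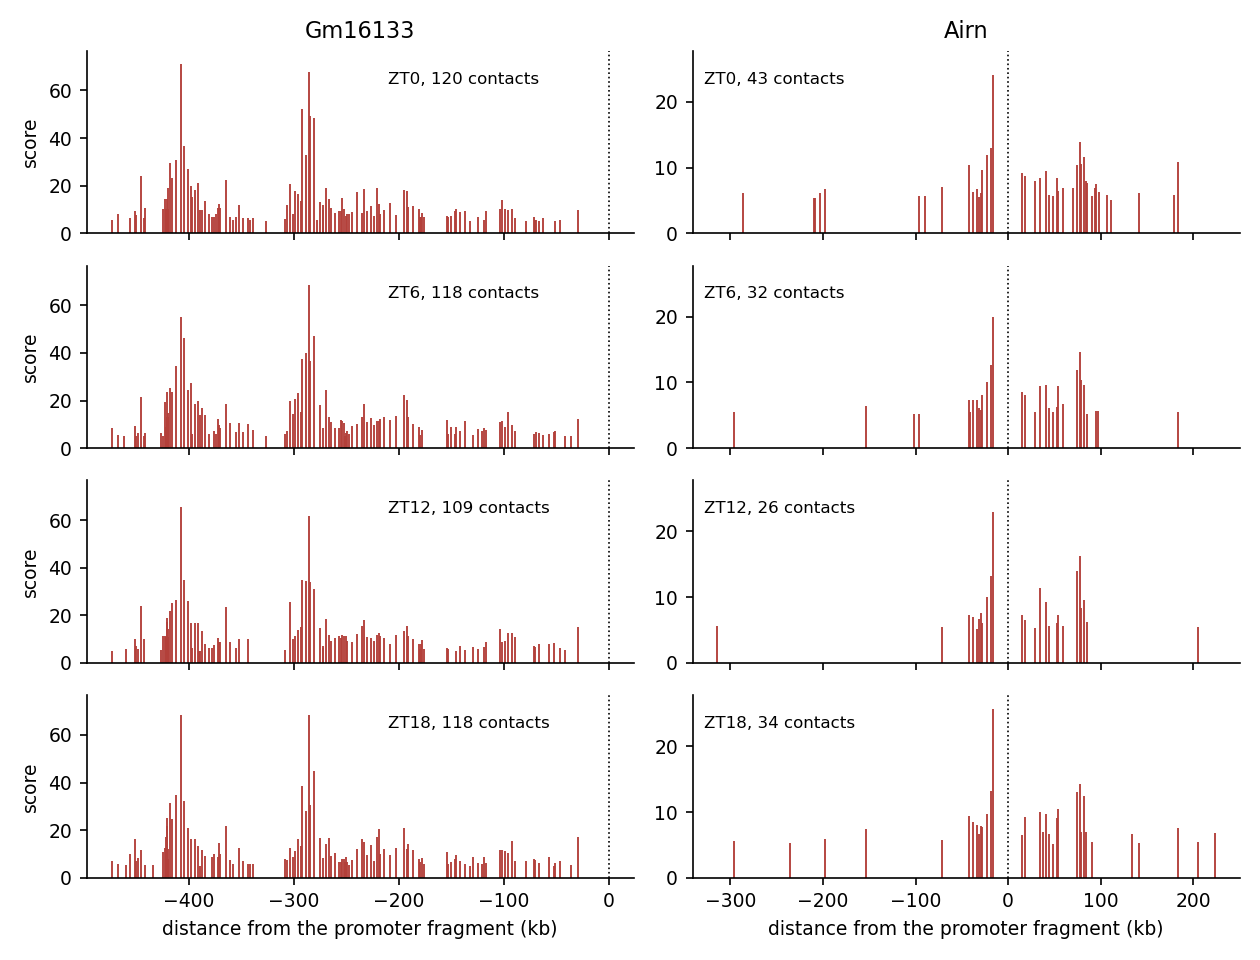
CHiCAGO score of each listed contact (vertical axis) by its distance in kb from the promoter fragment (horizontal axis, negative towards lower coordinates, dotted line at the promoter), for Gm16133 (left) and Airn (right) in the 4 lists. Every contact of Gm16133 lies to the left, in clusters near 285 and 408 kb that recur at all 4 timepoints, while those of Airn lie on both sides, 23 to the left and 31 to the right.

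The fragment of 1700058P15Rik, antisense to Vasp, a regulator of actin filaments, had 101, 99, 97 and 116 contacts, 128 in all, and 35 of them reached fragments with protein-coding starts. It lies in a gene-dense stretch with 53 protein-coding starts within 500 kb, and its highest scores with promoters were for Snrpd2, a core protein of spliceosomal snRNPs (22.9 at ZT6), and Ppm1n (16.6 at ZT12). Gm15418, which overlaps the collagen gene Col4a1, had 81, 81, 67 and 65 contacts, 108 in all and on the same side, and the highest reached Myo16 at 615 kb (scores of 63.1, 34.2, 48.6 and 54.1). It contacted the promoter of Irs2, an adaptor of the insulin receptor, at 178 kb with scores of 10.4, 10.9, 9.66 and 11.2. Gm11697 had 79, 82, 70 and 66 contacts, 98 in all, with scores up to 17.9, and lies in a cluster of ABC transporter genes: it starts in Abca8b, its highest scores reached Abca6, and it contacted the promoters of Abca8a and Abca9 at all 4 timepoints.

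Gm11379 and Gm16192 had 97 contacts each. Gm11379 starts 8.94 kb from the forkhead factor gene Foxc1, had its 97 contacts on one side and did not have a listed contact with the Foxc1 promoter. It was not examined whether fragments this near can be listed. The highest scores of Gm11379 were at 616 kb with a fragment outside protein-coding genes (36.4, 44.8, 40.9 and 38.0). Gm16192 lies in Mtus1 and contacted the promoters of Pcm1, which encodes a protein of centriolar satellites (21.7, 14.6, 13.7 and 13.7), and of Fgl1, a fibrinogen-like protein secreted by hepatocytes (9.31, 12.9, 6.35 and 12.3), at all 4 timepoints. 2610204G07Rik had 92 contacts with scores up to 46.2, and BC024582 had 90. BC024582 lies inside Bach2, a transcriptional repressor known from lymphocytes, and contacted its promoter at 336 kb with scores of 29.3, 28.6, 37.0 and 36.9.

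The highest score of all autosomal baits belonged to a member of another kind. The fragment of Gm11399 lies at chr11:3039562-3056799, in Sfi1 and near the start of the assembled sequence of the chromosome, and 41 of its 43 contacts were with other chromosomes. They made up 41 of the 44 between-chromosome contacts of all members and 41 of the 232 counted over all autosomal baits. Its score with a fragment of chromosome 5 was 595 at ZT0 and 579 at ZT6, and that pair was not listed at ZT12 or ZT18. Of its 43 other ends, 20 lay below 5 Mb of their chromosome, and 7 shared an exact word of 50 bases with it. None of the 133 other ends of Gm16133 and 6 of the 108 of Gm15418 shared such a word with their bait. The part of repeated sequence in these scores was not tested. Of the values computed again without this fragment, none moved by more than its interval.

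Among members, the highest single score within a chromosome was for Gm12473, an antisense lncRNA at Npr2, the receptor of C-type natriuretic peptide. All 20 of its contacts reached other baits. Its pair with the fragment at 19.5 kb that holds the starts of Hint2, Spag8 and Tmem8b scored 77.6, 33.7, 87.4 and 68.2, lowest at ZT6. Its pair with the Npr2 promoter at 9.27 kb scored 28.4, 34.3, 40.3 and 40.2. Gm12284 had 58 contacts, all on one side, and the highest reached the body of Pmp22, a gene of peripheral myelin, at 211 kb with scores of 64.9, 64.7, 61.1 and 63.1, and its Pmp22 promoter contact scored 31.8 to 37.6.

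Whether a lncRNA promoter meets the promoter of the gene beside it was asked for the 753 lncRNA starts whose nearest protein-coding start lay on another bait. In 257 cases (34.1%, 95% interval 30.8 to 37.6) that pair was listed at some timepoint, against 34.4% (33.6 to 35.2) for protein-coding starts and their nearest neighbour. Of the 257, 130 (50.6%) were listed at all 4 timepoints and 61 (23.7%) at 1 only. Under 10 kb the share was 23.2% (17.6 to 29.9) for lncRNA starts and 29.0% for protein-coding starts, and from 10 to 25 kb it was 44.1% (37.2 to 51.3) and 37.3%. The lncRNA intervals overlap those of protein-coding starts in each of the 6 classes of distance. Whether the lists can hold pairs of adjoining fragments was not examined, which bears on the shares under 10 kb in both groups. The contacts a lncRNA promoter had elsewhere were shared with its nearest protein-coding promoter in 53.7% of cases under 10 kb and in 6.48% over 250 kb, close to the 52.7% and 6.99% of protein-coding starts.

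**Figure D4:**
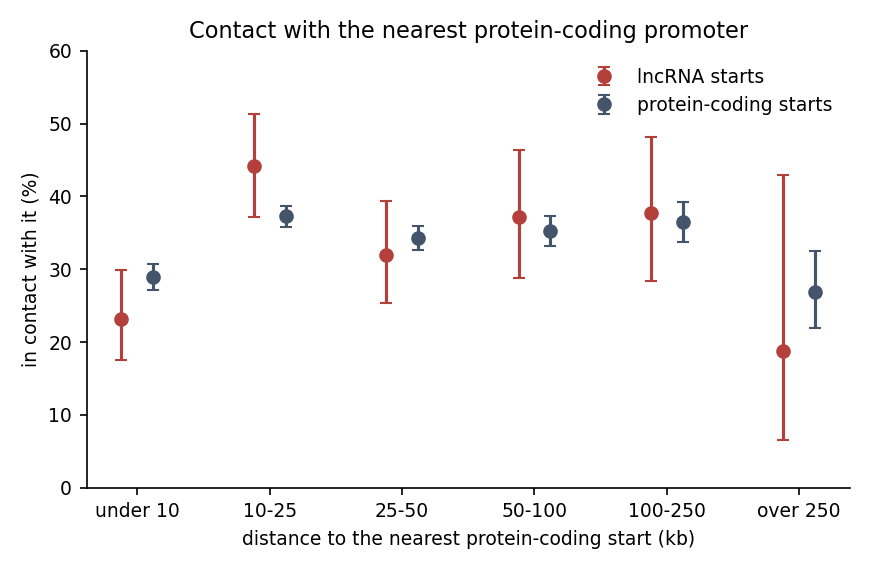
Share of gene starts in contact with the nearest protein-coding promoter on another bait (vertical axis, percent) by the distance between the starts (horizontal axis, kb), for lncRNA and protein-coding starts. Points are shares over the 4 lists together and bars are 95% Wilson intervals of counting error; the lncRNA bars overlap those of protein-coding starts in every class.

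The same was asked of the protein-coding gene that an antisense lncRNA overlaps. In 578 cases the start of the overlapped gene lay on another bait, and 232 of these pairs (40.1%, 36.2 to 44.2) were listed, 118 of them at all 4 timepoints and 52 at 1. The share was 18.6% (12.1 to 27.4) where the starts were under 10 kb apart, 51.9% (42.4 to 61.3) from 10 to 25 kb, 35.5% (27.6 to 44.4) from 25 to 50 kb, 52% (42.3 to 61.5) from 50 to 100 kb, 45.8% (36.7 to 55.2) from 100 to 250 kb and 32.7% (21.2 to 46.6) beyond. The same limit on adjoining fragments holds for the share under 10 kb. The highest score was for 4933423P22Rik and Ptprj, a receptor-type tyrosine phosphatase, at 104 kb (75.3, 66.2, 73.0 and 61.2). Of the 83 contacts of 4933423P22Rik, 71 were listed at all 4 timepoints, and the promoter of Nup160, a nuclear pore protein, at 199 kb was among them (51.0, 47.9, 41.7 and 36.1). Gm14011 and Mertk, a receptor tyrosine kinase for the clearance of apoptotic cells, scored 35.4, 50.9, 47.4 and 58.2 at 54.3 kb, though Gm14011 had only 7 contacts. 4930557C09Rik and BC046404 scored 34.7, 34.0, 44.2 and 53.2 at 10.2 kb. In these last pairs the highest score was at ZT18.

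Over the day the members as a group differed little. They had 7603, 7947, 7881 and 7826 contacts at ZT0, ZT6, ZT12 and ZT18, and the lists themselves held 146262, 154775, 151529 and 151347 pairs. The share of contacts listed at that timepoint alone was 13.01%, 14.8%, 13.8% and 13.2%. The median distance was 159, 162, 152 and 151 kb, with 95% intervals of 156 to 163, 158 to 165, 149 to 156 and 147 to 155 kb. For protein-coding baits it was 144, 145, 137 and 138 kb, so in both groups the medians were lower at ZT12 and ZT18 than at ZT0 and ZT6. Over the 4 lists, 33.6% of the contacts of members (32.8 to 34.4) were listed at all 4 timepoints and 34.0% at 1 only, against 33.3% and 34.5% for protein-coding baits. Where another end within 10 kb counted as the same contact, 69.3% of the contacts of members were present at all 4. For 239 members (28.6%) no contact was listed at all 4, a share close to that of all autosomal baits (28.1%). A pair just under the score minimum is absent from a list, so absence is not a measured value.

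Among the 241 members with a mean of at least 10 contacts per list, the scaled number of contacts was highest at ZT0 for 66 (27.4%), at ZT6 for 53 (21.99%), at ZT12 for 56 (23.2%) and at ZT18 for 66 (27.4%). Over all 5471 autosomal baits of that size these shares were 26.3%, 23.8%, 24.3% and 25.6%. Each background share lay within the 95% interval of the members. Contacts were divided by the total of each list for this, and 0.5 was added before ratios were taken.

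A difference of at least 2-fold between lists 12 h apart was seen for 7 members. At ZT0 over ZT12 there was 1 (background 1.24% of baits), at ZT12 over ZT0 there were 2 (1.21%), at ZT6 over ZT18 2 (1.37%) and at ZT18 over ZT6 2 (1.43%), so the shares of members, 0.415% to 0.830%, were not above those of all baits. The log2 ratios of the 241 members had medians of 0.01 for ZT0 over ZT12 and -0.03 for ZT6 over ZT18. With 1 list per timepoint these are descriptions of these lists.

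9630028H03Rik, which overlaps the phospholipase gene Plcb1, had 18 contacts at ZT0 and 10, 9 and 10 at ZT6, ZT12 and ZT18 (log2 ratio 1.01 for ZT0 over ZT12). All 20 of its distinct contacts lay on the side of Plcb4, whose promoter was listed at all 4 timepoints with scores of 6.16 to 7.41. Gm16120, in the spindle checkpoint gene Mad1l1, had 12, 13, 27 and 13 contacts (log2 ratio -1.09), with 9 of the 27 at ZT12 listed then alone. 1810008B01Rik, in the glycosyltransferase gene Galnt2, had 9, 14, 21 and 11 (log2 ratio -1.13), and its contact with the Galnt2 promoter was listed at ZT12 only, with a score of 5.14. For 9630028H03Rik and Gm16120 the other 3 lists differed by at most 1 contact, whereas 1810008B01Rik had an intermediate number at ZT6.

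Gm16552, in Atxn2, had 14, 20, 16 and 8 contacts (log2 ratio 1.24 for ZT6 over ZT18), and Gm13920, in Ldlrad3, had 8, 17, 9 and 8 (log2 ratio 1.01). At ZT18 Gm17179 had 39 contacts, against 20, 16 and 30 at the earlier times (log2 ratio -1.29). Gm17041, which overlaps Cish, an inhibitor of cytokine signalling, had 11, 11, 15 and 22 (log2 ratio -1.001). The median score of the contacts of Gm17041 was 10.2 at ZT0, with 11 contacts, and 6.80 at ZT18, with 22.

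**Figure D5:**
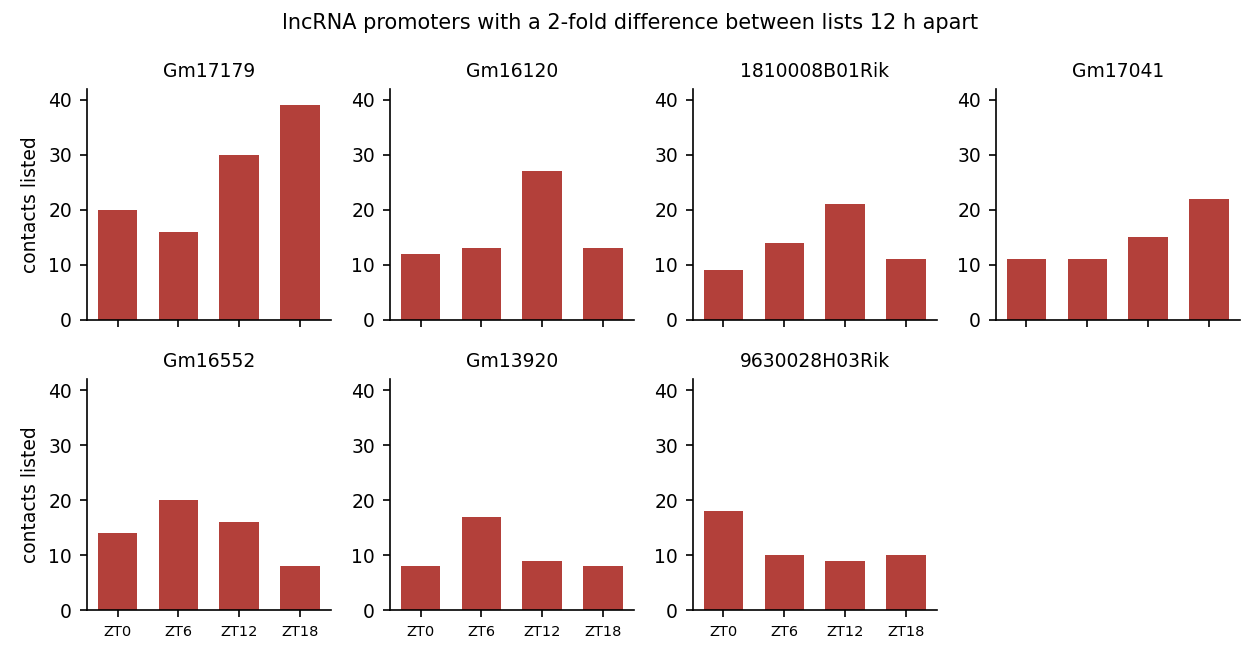
Number of contacts listed at each timepoint (vertical axis, from 0) for the 7 lncRNA promoter fragments with a scaled difference of at least 2-fold between lists 12 h apart, 1 panel per fragment and 1 list per bar, so bars have no error. The differences rest on small numbers, from 8 to 39 contacts per list.

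Imprinted lncRNAs were represented by 5 of the 6 that the annotation holds under their listed names, with the remaining one, Rian, on a fragment that also holds a protein-coding start. Airn, whose transcription silences Igf2r on the paternal chromosome, had 43, 32, 26 and 34 contacts, 54 in all and 20 at all 4 timepoints. Its contact with the Igf2r promoter at 34.5 kb scored 8.41, 9.47, 11.4 and 10.04, while its highest score (24.04, 19.99, 22.9 and 25.7) was with a fragment inside Igf2r at 16.6 kb. The lists do not separate the parental chromosomes.

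H19 had 11, 13, 10 and 10 contacts, 7 of 16 at all 4 timepoints, up to 277 kb away. Its highest score (12.5, 11.5, 12.2 and 9.11) was with a fragment outside protein-coding genes at 55.5 kb, and the promoter of Mrpl23, a mitochondrial ribosomal protein, was listed at all 4 timepoints (6.12 to 8.46). Nespas, antisense at the Gnas locus, had 22, 21, 16 and 32 contacts, but only 3 of 47 at all 4 timepoints, among them the promoter of Zfp831 (8.45 to 10.99). The Gnas promoter was listed at ZT18 only, with a score of 5.48. Of the Dlk1-Dio3 cluster, Meg3 had 2 contacts and Mirg had 7, of which 1 reached the promoter of the deiodinase gene Dio3, at ZT0 only. Of the imprinted members, then, Airn and Nespas had many contacts, Meg3 hardly any.

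Of the broadly expressed nuclear and snoRNA-host lncRNAs, 6 of 17 in the annotation lay on members. Snhg5 had 6, 7, 8 and 7 contacts, and those with the promoters of Syncrip, an RNA-binding protein (11.9, 9.43, 9.74 and 14.3), and Snx14, a sorting nexin, were listed at all 4 timepoints. 2410004N09Rik, listed as Epb4.1l4aos, had 38, 47, 44 and 39 contacts, the highest with the promoter of Stard4, a carrier of cholesterol, at 575 kb (23.8, 20.1, 19.3 and 22.4). The other 4, Snhg4, Snhg7, Mir17hg and 2700023E23Rik (Dancr), had 3 to 10 contacts, most of them not at all 4 timepoints.

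Of a list of developmental lncRNAs, most of them beside transcription factor genes, 7 of 25 lay on members, with 1 to 31 contacts. Gm15051 (Hotairm1) and Hoxb3os had 1 contact each and Gm16258 (Hotair) had 10, none at all 4 timepoints. 0610040B09Rik (Hoxb5os) had 13, of which that with the Hoxb4 promoter, a homeobox gene of the same cluster, had the highest score (13.03, 12.2, 9.10 and 8.38, higher at ZT0 and ZT6). Pax6os1 had 10, 22, 9 and 16 contacts, 2 of 31 at all 4 timepoints, and none with the Pax6 promoter 1.43 kb away. Whether fragments so near each other can be listed was not examined, so this absence is not read as a lack of contact. Dlx6os1 had 16 contacts, 1 at all 4 timepoints, and Dnm3os, which lies in the dynamin gene Dnm3 and not beside a transcription factor gene, had 24, of which the highest was with the promoter of another lncRNA, 2810442N19Rik, at 210 kb (14.5, 15.3, 14.1 and 18.98).

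Of the liver and metabolic lncRNAs, 2 of 12 lay on members. 0610008F07Rik (Hnf4aos), antisense to Hnf4a, a nuclear receptor that defines hepatocytes, had 13, 17, 18 and 15 contacts, 12 of 21 at every timepoint. The highest score (15.3, 17.4, 18.3 and 16.2) was with a fragment of Hnf4a at 6.17 kb. Gm15622, antisense to Bhmt, a homocysteine methyltransferase abundant in liver, had 3 contacts, and the 1 listed at all 4 timepoints (6.27 to 7.14) reached the body of the neighbouring gene Dmgdh, dimethylglycine dehydrogenase, at 92.4 kb.

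The study's list of circadian genes held 29 lncRNA genes of the annotation, 7 of them on members. That list was drawn by the study from liver expression, so it is no independent choice here. BB114351 had 12, 14, 12 and 12 contacts and Gm14097, in 1110034G24Rik, had 31, 33, 32 and 33, with 25 of 39 at all 4 timepoints. Gm14097 contacted the promoter of Gpcpd1, a phosphodiesterase of glycerophosphocholine, with scores of 19.9, 24.6, 22.5 and 29.6. Gm11832 had 37, 41, 36 and 41, and Gm11266, inside the transcription factor gene Nfib, had 36, 37, 30 and 35, none with a bait. 2410006H16Rik had 6, 8, 6 and 8, with a contact to the promoter of the nuclear corepressor gene Ncor1 at all 4 timepoints (5.03 to 8.50). Gm16573 had 3 contacts and Gm11583 had 2. Only 4 of the 7, BB114351, Gm14097, Gm11832 and Gm11266, had the mean of at least 10 contacts that the 2-fold comparison required, and none of these 4 differed 2-fold. Contacts with promoters of protein-coding genes on the same list numbered 180, which is 1.43% of the contacts of members (1.23 to 1.65), against 1.92% for protein-coding baits and 1.83% for all autosomal baits. Such contacts can only be with baits that hold a protein-coding start. Those made up 18.7% of the contacts of members, against 24.7% and 23.5%. The lower share is therefore not read as fewer contacts with circadian promoters in particular. Of the 180, 69 (38.3%) were listed at all 4 timepoints, against 37.96% for all autosomal baits.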

How the data were processed

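Promoter Capture Hi-C libraries of mouse liver were made with HindIII and biotinylated RNA baits. The authors mapped and filtered reads with HiCUP on mm9 (build per the labels), merged the 3 pools of each timepoint and called contacts with CHiCAGO (versions are not given in the sources used here). The deposited lists give 3 columns, a bait fragment, another fragment and a CHiCAGO score, and hold only pairs with a score of at least 5, so the number of reads behind a pair is unknown. The timepoint of each list was taken from the labels; a summary supplied with the study gives the totals of ZT6, ZT12 and ZT18 in another order, and the swapped reading was an alternative. All 127672 autosomal fragments in the lists were identical to HindIII fragments of the mm9 reference.

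Gene starts came from GENCODE vM1. A gene whose record is lincRNA or processed transcript was typed lincRNA or antisense where at least 1 of its transcripts has that type; reading the gene record alone gave 36 fragments and was an alternative added after the data were seen. Contacts were counted from both ends of a pair, as distinct pairs over the 4 lists or per list. For ratios between timepoints, contacts were divided by the total of each list and 0.5 was added, for baits with a mean of at least 10. With 1 merged list per timepoint no test was possible; 95% Wilson intervals of shares and order-statistic intervals of medians cover counting error only. Promoter windows were read from the reference genome. Calculations used Python 3.11.15 with pandas 2.3.3, numpy 2.4.6, scipy 1.17.1 and matplotlib 3.10.9, and were tested on simulated lists.

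The members, gene lists and alternatives were chosen with earlier results of these data known. Named members are those of the lists of imprinted, nuclear and snoRNA-host, developmental and liver lncRNAs, those on the study's list of circadian genes with at least 3 contacts, the 8 with most contacts, the 5 with the highest scores, up to 5 per direction with a 2-fold difference, and up to 3 with the highest score to the promoter of the gene they overlap. Gm11583, with 2 contacts, was named after its values were seen. Alternatives were other score minimums, equal list lengths, counting from the bait column alone, other definitions of members, other contact minimums, a tolerance of 10 kb, swapped lists and a longer window. A few contacts and 1 sequence are not reported here.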

Additional observations from a re-analysis of the deposited data

How the results depend on the processing

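Of 139 values computed under alternatives, 90 moved by less than their interval, or by less than 1.5 times for counts, and 49 moved. Apart from the longer window, the alternatives were computed for members only. The counts and shares below, the one-sided share among them, thus have no value of other baits beside them. They do not show whether a contrast with those baits changed. With a score of at least 7 and of at least 10, the median number of contacts was 5 and 3, the share at all 4 timepoints 34.4% and 34.7%, the median distance 163 and 161 kb, the share with a bait at the other end 25.1% and 28.6%, contact with the nearest protein-coding promoter 18.99% and 9.83%, and the share with all contacts on one side 40.7% and 59.5%. With those scores 1 of 117 and 0 of 44 members differed 2-fold between ZT0 and ZT12, and 17.1% and 11.4% had most contacts at ZT12. At 10 alone 0 of the 44 members differed between ZT6 and ZT18, 36.4% had most at ZT0 and 34.1% at ZT18. Counted from the bait column alone, the bait-end share was 12.5%, the nearest-promoter share 17.9% and the one-sided share 37.4%. For members that are bait in all 4 lists the median was 13 contacts, 35.0% were at all 4 timepoints and 21.6% had a bait end. Without fragments that hold a protein-coding transcript start, 32.7% were at all 4 timepoints and the median distance was 177 kb. At least 5 kb from protein-coding starts the bait-end share was 21.6%. When ends within 10 kb counted as the same contact, 69.3% were at all 4 timepoints. On chromosomes other than 2, 4 and 11, an alternative chosen after seeing the data, this share was 32.5%.

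Of 421 members with a mean of at least 5 contacts, 17 differed 2-fold between ZT0 and ZT12 and 18 between ZT6 and ZT18. Of 106 with a mean of at least 20, 0 and 1 did. The shares of all autosomal baits were not computed for these alternatives, so the counts have no background. With equal list lengths 21.3% had most contacts at ZT0 and 20% at ZT18, and with swapped lists 21.99% at ZT18. For the gene record alone, chosen after seeing the data, the bait-end share was 19.6%, the nearest-promoter share 27.5% and the one-sided share 23.8%. Only 13 such members had enough contacts: 0 and 0 differed 2-fold, and 7.69% and 38.5% had most contacts at ZT0 and ZT6. A window of 1000 bases held the E-box at 14.8%, the D-box at 2.46%, the ROR element core at 9.15%, the CTCF core at 5.28% and TATAAA at 35.3% of lncRNA starts, and the order against all starts reversed for the D-box and TATAAA. Fewer pairs pass a higher score, and a longer window holds more letters; for the other moves the cause was not tested. Leaving out Gm11399, also chosen after seeing the data, moved none of the values recomputed.

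No paired analysis was possible because each list merges all pools of its timepoint, and for the same reason no pool was left out in turn. The read depth behind a score is unknown.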
